A study of Homo sapiens with 12 samples.

Results

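The E2F and retinoblastoma family genes were taken as 10 named members, namely E2F1 to E2F8, RB1 and RBL1, out of 60617 gene identifiers in the RSEM tables. They were chosen by name, with earlier results of these data known. All 10 passed the filter on low counts that left 15692 genes for testing. RNA-seq was carried out on 12 libraries in 4 groups of 3. HCT 116p53-/- cells, a human colorectal carcinoma line lacking p53 and called here the parental line, received vehicle or 5 nM actinomycin D (Act D) for 24 h. The other line carries the same p53 deletion, is named HCT 116p53-/-RPL3 KO in the labels and uL3ΔHCT 116p53-/- by the authors, who describe it as derived from the first line and stably silenced for ribosomal protein uL3, and received the same vehicle or Act D. The sources used here do not say whether it is 1 clone. Labels call the libraries biological replicates without saying that they came from separate cultures, so p-values measure the spread between these libraries.

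E2F proteins bind promoters of genes needed for DNA replication and division, most of them as dimers with a DP partner. E2F1, E2F2 and E2F3 mainly activate transcription and are held back by the retinoblastoma protein RB1. E2F4 and E2F5 mainly repress together with the pocket proteins RBL1 (p107) and RBL2 (p130), E2F6 represses with Polycomb proteins and without pocket proteins, and E2F7 and E2F8 are atypical repressors that need no DP partner. Cyclin-dependent kinases release the E2Fs by phosphorylating the pocket proteins, and CDK inhibitors such as p21 oppose this. Several family genes are themselves E2F targets, and low-dose Act D blocks RNA polymerase I and so causes nucleolar stress.

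The promoters are shown first because the members differed in E2F sites. The RefSeq promoter table (GRCh38.p14, 250 bases before to 50 bases after each start) held 9 windows for 8 of the 10 members, with E2F3 represented by 2 starts. E2F5 and E2F8 were not in it, and the RB1 window starts inside the gene. Each window was searched on both strands for the E2F consensus, spelled TTTCCCGC, TTTCGCGC, TTTGCCGC or TTTGGCGC. A match was found in 4 of the 9 windows (44.4%), in 18 of 45 windows of the G1/S target list used below (40.0%) and in 3.31% of all 35116 windows. The stretches with the matches follow, 5′ to 3′ along the gene, with the consensus in capitals.
E2F1, chr20:33686386-33686430, minus strand: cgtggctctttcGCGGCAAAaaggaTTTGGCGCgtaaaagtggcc
E2F2, chr1:23531256-23531287, minus strand: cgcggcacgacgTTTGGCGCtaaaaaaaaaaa
E2F3, chr6:20401814-20401845, plus strand: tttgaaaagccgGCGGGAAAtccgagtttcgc
RBL1, chr20:37095998-37096035, minus strand: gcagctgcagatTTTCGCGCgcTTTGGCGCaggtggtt

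E2F1 and RBL1 held 2 matches each, E2F2 and E2F3 held 1 each, and no match overlapped another. All lie upstream of the start. In E2F3 the match belongs to the upstream of the 2 starts. In the 1 library deposited per transcript, the E2F3 transcript that begins in this window (ENST00000346618) had an expected count of 269.27. It made up 28.07% of the gene's TPM. A transcript that begins further downstream (ENST00000535432) had a count of 565.75 and 67.45% of the TPM. The CHR element TTTGAA was found in 1 member window, at the beginning of the E2F3 stretch above, against 15.2% of all windows. A CCAAT box was found in 3 member windows, those of E2F1, E2F7 and the upstream E2F3 start, against 34.6% of all windows. These matches describe letters in a window and are not evidence of binding.

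In GENCODE 44 on GRCh38, E2F1 spans chromosome 20 from 33675477 to 33686385 and RBL1 spans the same chromosome from 36996349 to 37095997, both on the minus strand. E2F2 lies on chromosome 1 (23506438 to 23531233, minus), E2F3 on chromosome 6 (20401879 to 20493714, plus), E2F4 on chromosome 16 (67192155 to 67198918, plus) and E2F6 on chromosome 2 (11444375 to 11466177, minus). E2F7 lies on chromosome 12 (77021248 to 77065569, minus), E2F8 on chromosome 11 (19224063 to 19241620, minus), E2F5 on chromosome 8 and RB1 on chromosome 13 (48303744 to 48599436, plus). E2F5 shares 997 exon bases, 16.6% of its exons, with RBIS on the opposite strand, which averaged 610 counts a library. RSEM was run with its standard parameters, which do not use strand, so reads from the shared bases cannot be told apart by strand and E2F5 values are uncertain.

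Libraries held between 10087925 and 21138886 expected counts. RPL3, which encodes uL3, was at 1138 ± 15.3 CPM (counts scaled to library size with TMM factors, the trimmed mean of M-values; SD, n = 3) in vehicle-treated parental libraries and at 1242 ± 82.5 in those labelled uL3Δ (log2 fold change 0.13, adjusted p = 0.155). The transcript of the targeted gene was thus not reduced where the label says so, and these libraries are named by their label throughout. Of 12 colon epithelium markers, 8 were tested, of which 7 were lower and 1 was higher in the vehicle-treated libraries labelled uL3Δ, with a median log2 fold change of -4.11. CDH1 was at 66.8 CPM against 0.445, and the summed markers ranged from 2481 to 2814 CPM in parental libraries and from 1591 to 1983 in the others. Of 10 mesenchymal markers tested, 8 were higher and 1 was lower, with sums of 63.49 to 117.2 against 3695 to 4139 CPM. Of 3 leukocyte and endothelial markers tested, 2 were higher and 1 was lower, with sums of 8.091 to 12.77 against 21.37 to 30.96 CPM. CD3E had no count in any library, and PTPRC and CDH5 did not pass the filter on low counts. CDX1 had no count in parental libraries and VIL1, CDH17 and LGALS4 did not pass the filter, so that 4 colon markers could not be used in either line. What these markers contribute to line differences in the family was not tested, and the uL3 status of the line cannot be told apart from its other differences.

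Levels of different genes were compared per transcript length, in TPM. E2F4, the main repressor E2F of non-dividing cells, was the highest member in all 4 groups. It stood at 50.9 ± 5.13 TPM in vehicle-treated parental cells, followed by E2F6 (12.3 TPM), E2F1 (10.2), E2F3 (10.2), RB1 (8.67), E2F2 (6.10), RBL1 (5.27), E2F8 (4.99), E2F7 (4.69) and E2F5 (3.26). Of these neighbours, E2F1 and E2F3, RBL1 and E2F8, and E2F8 and E2F7 overlapped between libraries. With Act D the parental order was E2F4 (46.0 TPM), E2F6 (11.0), E2F1 (7.91), RB1 (7.47), E2F3 (7.15), E2F7 (6.85), E2F8 (5.18), E2F2 (3.21), RBL1 (2.96) and E2F5 (2.62), with overlaps from E2F1 through E2F7 and from E2F2 through E2F5.

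A different member closed the order in the libraries labelled uL3Δ. With vehicle it ran E2F4 (24.1 TPM), E2F6 (11.7), E2F1 (10.1), E2F7 (8.26), RB1 (7.14), E2F5 (4.41), E2F3 (4.19), RBL1 (2.40), E2F2 (1.31) and E2F8 (0.89), with overlaps between libraries from E2F6 through RB1 and from E2F5 through RBL1. Within each of the 3 libraries, E2F6, E2F1, E2F7 and RB1 nevertheless kept this order. With Act D it ran E2F4 (15.8 TPM), E2F1 (8.63), E2F7 (6.96), E2F6 (6.84), RB1 (6.53), E2F5 (3.92), E2F3 (3.14), RBL1 (1.56), E2F2 (1.05) and E2F8 (1.04), with overlaps from E2F7 through E2F3 and from RBL1 through E2F8. There E2F7 lay above E2F6 in only 1 of the 3 libraries, and E2F6 above RB1 in only 1. CPM divided by effective length in kilobases gave the same order in every group. It rests on the same counts and effective lengths as TPM, so the order within a library could not differ and the lengths were not tested.

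**Figure D1:**
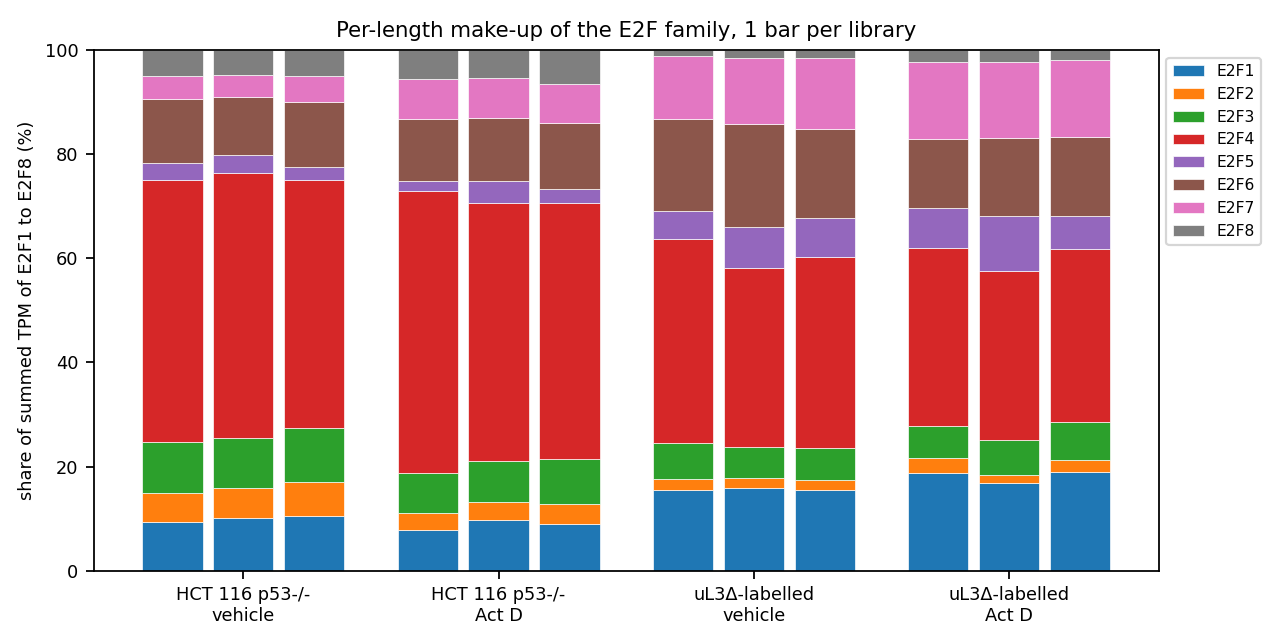
Share of the summed TPM of E2F1 to E2F8 (y axis, %) taken by each gene, with 1 stacked bar for each of the 12 libraries grouped by line and treatment. E2F4 (red) takes 49.6% and 51.0% on average in the parental groups and 36.7% and 33.3% in the groups labelled uL3Δ, where the E2F7 segment (pink) is wider and the E2F8 segment (gray) narrower.

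Per length, the make-up of the E2F family differed between the lines. E2F4 took 49.6% ± 1.70 (SD, n = 3) of the summed TPM of E2F1 to E2F8 in vehicle-treated parental libraries and 36.7% ± 2.33 in those labelled uL3Δ. The ratio of E2F7 to E2F8 was 0.941 ± 0.0699 in vehicle-treated and 1.33 ± 0.148 in Act D-treated parental libraries. It was 9.23 ± 1.11 and 6.78 ± 0.656 in the corresponding libraries labelled uL3Δ, so that the lowest of these 6 libraries (6.20) lay above the highest parental library (1.44). The activators E2F1 to E2F3 together took 25.9%, 20.4%, 24.0% and 27.1% of the family in vehicle-treated parental, Act D-treated parental, vehicle-treated uL3Δ-labelled and Act D-treated uL3Δ-labelled libraries. E2F7 and E2F8 together took 9.44%, 13.4%, 14.2% and 16.9% in the same order.

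**Figure D2:**
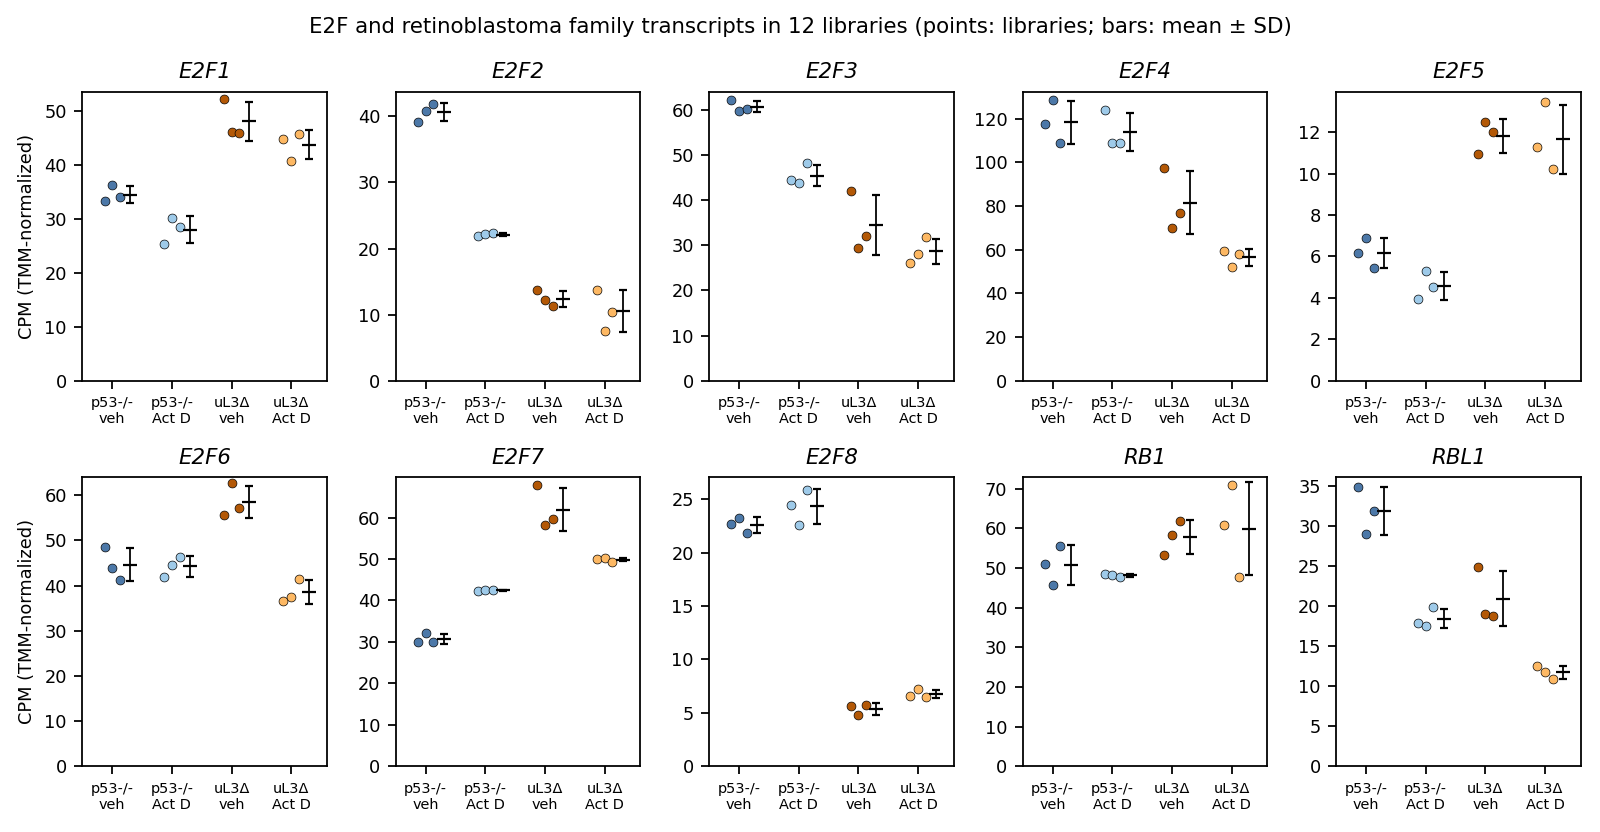
CPM (y axis, linear from 0, separate for each gene) of the 10 members in the 4 groups on the x axis. Points are libraries and bars the mean ± SD of 3. With both treatments pooled, E2F1, E2F2, E2F3, E2F4, E2F5, E2F7 and E2F8 separate the lines without overlap, and E2F6, RB1 and RBL1 do not. Within each treatment only RB1 overlaps. RBL1 is lower in the libraries labelled uL3Δ under each treatment, and E2F6 is higher there with vehicle and lower with Act D. E2F7 is lowest in vehicle-treated parental libraries (29.9 to 32.1) and highest in vehicle-treated libraries labelled uL3Δ (58.2 to 67.8).

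Act D in the parental line changed 5 of the 10 members, with 4 lower and 1 higher. Over all genes tested, 18.7% passed the same threshold (edgeR quasi-likelihood test, Benjamini-Hochberg adjusted p under 0.05), 11.1% lower and 7.59% higher. The members' median log2 fold change was -0.19, against 0.02 over all genes. The 4 that fell were E2F1, E2F2, E2F3 and RBL1, and the 1 that rose was the atypical repressor E2F7. The 4 that fell also have a promoter stretch printed above, but E2F5 and E2F8 had no window. Of the 4, only RBL1 was called in the libraries labelled uL3Δ. Whether the sites bear on the fall was not tested. For 6 members the Act D-treated libraries did not overlap the vehicle-treated ones, against 38.2% of all genes. In bulk RNA, fewer cells in a phase of the cycle and less RNA per cell cannot be told apart.

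Among the activators, E2F2 was at 39.2, 40.8 and 41.9 CPM in the 3 vehicle-treated parental libraries and at 21.9, 22.2 and 22.3 with Act D. The groups did not overlap, and the log2 fold change was -0.88 ± 0.14 (SE, adjusted p = 0.000186), a 1.84-fold lower level. E2F3 was at 62.3, 59.9 and 60.2 CPM with vehicle and at 44.5, 43.8 and 48.3 with Act D. All treated libraries lay below all untreated ones, with a log2 fold change of -0.42 ± 0.11 (adjusted p = 0.0147). E2F1 was at 33.2, 36.2 and 33.9 CPM with vehicle and at 25.2, 30.2 and 28.4 with Act D. Its fold change was the smallest of the 5 (log2 -0.30 ± 0.10, adjusted p = 0.0363). Without Act D-treated replicate 1, both E2F1 and E2F3 were above the threshold and 3 members were called. The E2F3 call was also lost without Act D-treated replicate 2 (adjusted p of up to 0.064). The E2F1 call was lost in 9 of 20 alternative settings, among them leaving out any parental library except Act D-treated replicate 2, with adjusted p between 0.0183 and 0.187.

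RBL1, which encodes the pocket protein p107, was at 34.9, 29.0 and 31.9 CPM in vehicle-treated parental libraries and at 17.9, 17.6 and 19.9 with Act D. It fell 1.73-fold without overlap (log2 -0.79 ± 0.12, adjusted p = 0.000168). E2F7 was at 29.9, 32.1 and 30.1 CPM with vehicle and at 42.4, 42.5 and 42.5 with Act D. It was 1.38-fold higher in all 3 treated libraries (log2 0.47 ± 0.08, adjusted p = 0.000762). E2F8, the other atypical repressor, was at 22.6 ± 0.744 CPM with vehicle and 24.3 ± 1.66 with Act D, with overlapping groups (95% interval of the log2 fold change -0.12 to 0.33).

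The remaining members did not pass the test in the parental line. RB1 was at 50.8 ± 5.01 and 48.1 ± 0.447 CPM with vehicle and Act D (interval -0.33 to 0.17). E2F4 was at 118 ± 9.89 and 114 ± 8.74 CPM (interval -0.28 to 0.18). E2F6 was at 44.6 ± 3.66 and 44.3 ± 2.29 CPM (interval -0.20 to 0.18). E2F5 was at 6.16 ± 0.726 and 4.57 ± 0.677 CPM with no overlap, but its adjusted p was 0.0846, and these 6 libraries held between 56 and 100 counts of the gene.

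**Figure D3:**
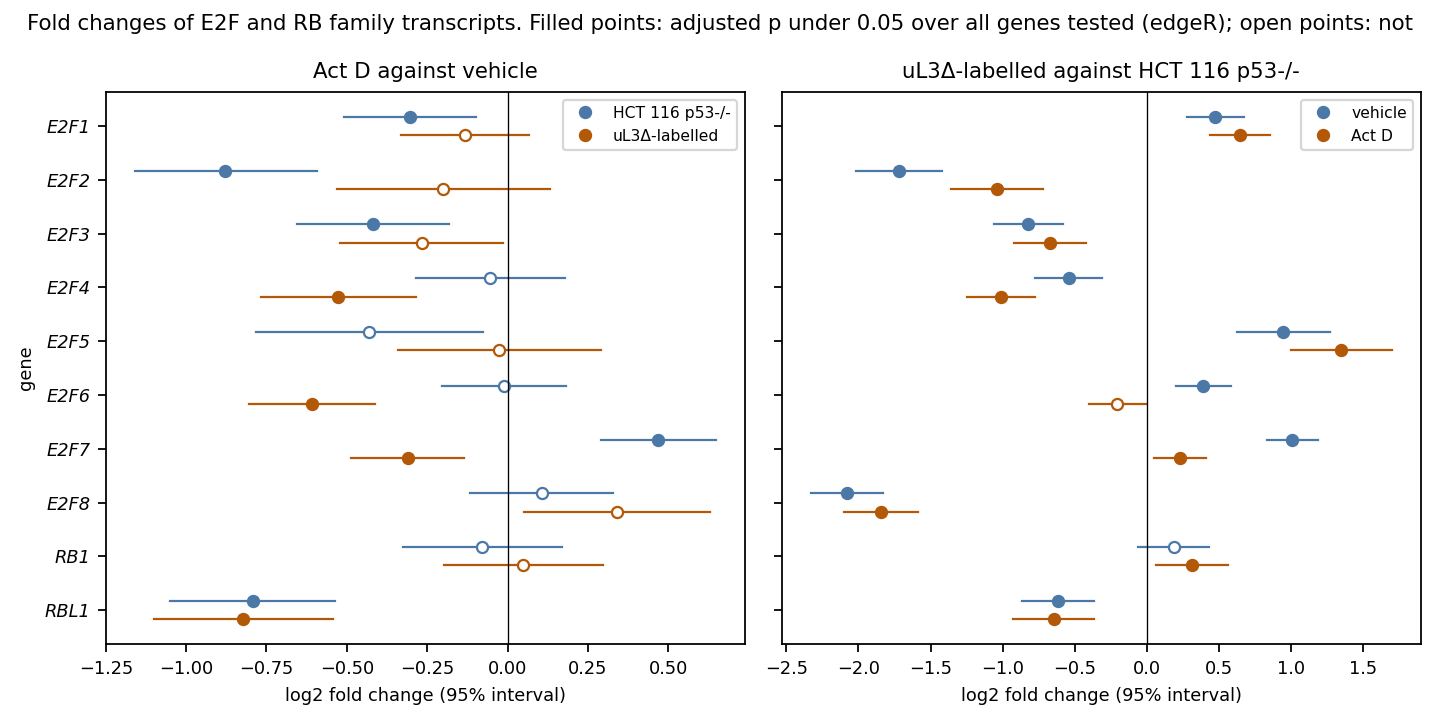
Log2 fold changes (x axis) of the 10 members (y axis) with 95% intervals, for Act D against vehicle in each line (left) and for the libraries labelled uL3Δ against the parental ones under each treatment (right). Filled points passed adjusted p under 0.05 over all genes tested. E2F7 lies to the right of 0 in the parental line (0.47) and to the left in the libraries labelled uL3Δ (-0.31), and RBL1 lies at -0.79 and -0.82.

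After Act D, 4 of the 10 members were lower and 0 were higher in the second line, where 11.9% of all genes passed the threshold (8.4% lower and 3.51% higher). At an unadjusted p under 0.05, edgeR gave 1 higher member (E2F8), and DESeq2 gave 0 after adjustment. Groups did not overlap for 6 members, against 27.6% of all genes. The 4 that fell were RBL1, E2F4, E2F6 and E2F7, with a median over the 10 members of -0.23 against 0.03 over all genes. RBL1 was at 24.9, 19.1 and 18.8 CPM with vehicle and at 12.5, 11.8 and 10.9 with Act D. It was the member that fell in both lines, here 1.77-fold (log2 -0.82 ± 0.13, adjusted p = 0.000444). The difference between the lines in its response was -0.03 on the log2 scale with a 95% interval of -0.41 to 0.34.

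E2F6, the Polycomb-linked repressor, was at 55.7, 62.6 and 57.2 CPM with vehicle and at 36.6, 37.5 and 41.5 with Act D. It fell 1.52-fold without overlap (log2 -0.61 ± 0.09, adjusted p = 0.000286). E2F4 was at 97.7, 70.0 and 77.0 CPM with vehicle and at 59.3, 51.8 and 58.2 with Act D. Every treated library was below every untreated one (log2 -0.53 ± 0.11, adjusted p = 0.00523), although vehicle-treated replicate 1 was higher than the other two. E2F7 was at 67.8, 58.2 and 59.7 CPM with vehicle and at 49.9, 50.2 and 49.4 with Act D. The groups did not overlap, with a log2 fold change of -0.31 ± 0.08 (adjusted p = 0.0204). This call was lost without vehicle-treated replicate 1, without Act D-treated replicate 1, with upper-quartile scaling and with only these 2 groups in the fit, where adjusted p reached 0.0802.

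The activators did not pass the test in the libraries labelled uL3Δ. E2F1 was at 48.0 ± 3.59 and 43.7 ± 2.67 CPM with vehicle and Act D (interval -0.33 to 0.07). E2F3 was at 34.5 ± 6.66 and 28.7 ± 2.84 CPM (interval -0.52 to -0.01, adjusted p = 0.171). E2F2 was at 13.7, 12.2 and 11.3 CPM with vehicle and at 13.7, 7.54 and 10.3 with Act D. Its groups overlapped (log2 -0.20 ± 0.16, adjusted p = 0.464), and the library at 7.54 CPM rests on 66 counts. E2F8 was at 5.37 ± 0.539 and 6.77 ± 0.374 CPM (adjusted p = 0.123), E2F5 at 11.8 ± 0.811 and 11.7 ± 1.67 CPM, and RB1 at 57.8 ± 4.40 and 59.9 ± 11.7 CPM.

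Whether the response to Act D differed between the lines was tested by the interaction term. It was called for 2 of the 10 members, E2F7 and E2F6, and for 6.53% of all genes (3.23% with a negative and 3.3% with a positive difference). E2F7 rose in the parental line and fell in the libraries labelled uL3Δ, a difference of -0.78 ± 0.12 (adjusted p = 0.000941). For E2F6 the difference was -0.60 ± 0.13 (adjusted p = 0.0105), with 44.6 and 44.3 CPM in the parental groups against 58.5 and 38.5 in those labelled uL3Δ. Both calls held in every alternative setting except a required log2 difference of at least 1. The E2F2 difference was 0.68 (adjusted p = 0.0599) and that of E2F4 was -0.47 (adjusted p = 0.0846). Both passed with DESeq2 and with no filter on low counts, which gave 4 members in place of 2. The E2F2 difference also passed with the likelihood-ratio test, with upper-quartile scaling and without vehicle-treated replicate 1 or Act D-treated replicate 2 of the libraries labelled uL3Δ. It ranged from 0.407 (adjusted p = 0.249, without Act D-treated replicate 1 of those libraries) to 0.826 over the alternatives. That of E2F4 also passed without vehicle-treated replicate 2. The E2F1 and E2F3 differences were 0.17 and 0.15, with intervals of -0.12 to 0.46 and -0.20 to 0.50. For these 2 genes the responses of the lines were therefore not shown to differ.

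Between the lines with vehicle, 9 of the 10 members differed, where 71.3% of all genes did (35.1% up and 36.2% down relative to the parental line), and the same 9 did not overlap between the lines, against 72.5% of all genes. E2F2, E2F3, E2F4, E2F8 and RBL1 were lower and E2F1, E2F5, E2F6 and E2F7 were higher. With so high a background the count of members is not a result about the family, and sizes and directions are given instead. The comparisons under vehicle and under Act D have no library in common, but each shares its groups with the treatment comparisons above.

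E2F8 differed most among the members. It was at 22.7, 23.3 and 21.8 CPM in vehicle-treated parental libraries and at 5.62, 4.75 and 5.74 in those labelled uL3Δ. The level was 4.23-fold lower with no overlap (log2 -2.08 ± 0.12, adjusted p = 3.56e-11), and under Act D the log2 difference was -1.85. E2F7, its closest relative, went the other way with vehicle (log2 1.01 ± 0.08, adjusted p = 5.42e-09, a 2.02-fold higher level). With Act D the E2F7 difference was 0.23 (adjusted p = 0.0208) and was lost in 7 of 20 alternatives, among them leaving out any Act D-treated parental library or Act D-treated replicate 2 or 3 of the others, and scaling by library size alone, where it was -0.01 (adjusted p = 0.913).

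The activators differed in opposite directions. E2F2 was at 40.7 ± 1.36 CPM in vehicle-treated parental libraries and 12.4 ± 1.17 in those labelled uL3Δ (log2 -1.72 ± 0.14, adjusted p = 4.95e-09), and the log2 difference with Act D was -1.04. E2F3 was lower with vehicle (log2 -0.82, adjusted p = 4.16e-06) and had a difference of -0.67 with Act D. E2F1 was higher in the libraries labelled uL3Δ, at 52.1, 46.0 and 45.8 CPM against 33.2, 36.2 and 33.9 (log2 0.48 ± 0.09, adjusted p = 0.000206), and by 0.65 with Act D. The vehicle difference of E2F1 passed in 19 of 20 alternatives and was lost with scaling by library size alone (adjusted p = 0.0616), which moved the median of all genes by -0.26.

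Among the repressors that work with pocket proteins, E2F4 was lower in the libraries labelled uL3Δ by a log2 fold change of -0.54 with vehicle (adjusted p = 0.000278) and -1.01 with Act D. E2F5 was higher, at 10.92, 12.51 and 12.02 CPM against 6.16, 6.89 and 5.43 with vehicle (log2 0.95 ± 0.15, adjusted p = 2.49e-05), within the limit of its overlap with RBIS. RBL1 was lower with vehicle (log2 -0.62, adjusted p = 0.000169) and with Act D (-0.65). E2F6 was higher with vehicle (log2 0.39, adjusted p = 0.00079, not with scaling by library size alone) and did not pass with Act D (-0.20, adjusted p = 0.0618), except without Act D-treated replicate 3 of the libraries labelled uL3Δ and with scaling by library size alone.

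RB1 had the narrowest range of the members, with group means between 48.1 and 59.9 CPM (0.295 on the log2 scale). The line difference was 0.19 with vehicle (adjusted p = 0.159). With Act D it was 0.31 (adjusted p = 0.0247), but the groups overlapped, at 48.6, 48.1 and 47.7 CPM against 60.9, 71.0 and 47.7, and the call was lost in 6 of 20 alternatives, among them leaving out any Act D-treated parental library or Act D-treated replicate 1 or 2 of the others. With Act D 9 of 10 members passed, against 70.4% of all genes. Of these, 4 were higher and 5 lower, against 35.1% and 35.3% of all genes, and 9 members (all but RB1) did not overlap, against 74.1%.

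Partners of the family were followed in lists drawn up from their known roles. TFDP1 and TFDP2 encode DP1 and DP2, with which E2F1 to E2F6 dimerize, and TFDP3 did not pass the filter on low counts. TFDP1 was at 182.6, 179.8 and 185.6 CPM with vehicle and at 148.1, 145.5 and 150.0 with Act D in parental cells (log2 -0.31, adjusted p = 0.0133), a call lost without any 1 of the 3 treated libraries. It also fell in the libraries labelled uL3Δ (log2 -0.44). TFDP2 was at 42.4, 39.5 and 43.1 CPM with vehicle and at 33.0, 32.7 and 31.5 with Act D in the parental line, where it fell (log2 -0.36, adjusted p = 0.00477). In the libraries labelled uL3Δ it was at 49.2, 51.9 and 52.3 and then at 59.9, 65.1 and 59.3 CPM (log2 0.26, adjusted p = 0.0411, lost in 16 of 20 alternatives). The 2 responses differed by 0.63 on the log2 scale (adjusted p = 0.00351).

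The third pocket protein gene, RBL2, passed the test in none of the comparisons, with log2 fold changes between -0.10 and 0.32. Of its list of 8 with the MuvB core, MYBL2 and FOXM1, 0 passed with Act D in the parental line by edgeR (2 at an unadjusted p under 0.05, 0 by DESeq2) and 2 in the libraries labelled uL3Δ, RBBP4 higher and LIN54 lower (against 3.51% and 8.4% of all genes). Both calls were lost in 7 of 20 alternatives, that of RBBP4 among others without vehicle-treated replicate 1 or 3 or Act D-treated replicate 2 or 3 (adjusted p of up to 0.187) and that of LIN54 without vehicle-treated replicate 2 or 3 or Act D-treated replicate 1 or 2. LIN9, LIN37 and LIN52, the other subunits of the core, had log2 fold changes with Act D of -0.08, 0.04 and -0.36 in the parental line and -0.12, 0.42 and -0.10 in the libraries labelled uL3Δ, and FOXM1 had 0.10 and 0.24. MYBL2, itself an E2F target, was higher in the libraries labelled uL3Δ by 0.85 with vehicle and 0.93 with Act D. Of 12 Polycomb partners of E2F6, 3 fell with Act D in the parental line (MGA, PCGF6 and EZH2) and 2 in the libraries labelled uL3Δ (PCGF6 at -0.75 and MGA at -0.55), against 11.1% and 8.4% of all genes lower, while 0 rose, also by DESeq2 or at an unadjusted p under 0.05. MGA and PCGF6 belong to the E2F6-containing complex PRC1.6. Of 10 germline genes that E2F6 is known to silence, only STAG3 could be tested and it passed in none of the comparisons, nor by DESeq2 or at an unadjusted p under 0.05.

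Of the CDK inhibitors, 5 of 7 rose with Act D in the parental line (background 7.59% of genes higher) and 1 of 7 in the libraries labelled uL3Δ (background 3.51%). CDKN1A, which encodes p21, was at 154.3, 173.5 and 158.8 CPM with vehicle and at 577.4, 562.9 and 523.0 with Act D in the parental line, 3.42-fold higher (log2 1.77, adjusted p = 4.02e-10). In the libraries labelled uL3Δ it was at 72.3, 76.6 and 73.9 and then at 86.8, 82.2 and 90.2 CPM (log2 0.22, adjusted p = 0.0881, past the threshold with DESeq2 and with upper-quartile scaling). This difference in response was the largest among the genes on these lists outside the cell type markers that passed the interaction test (-1.56, adjusted p = 1.06e-06). CDKN2B, which encodes p15, rose in both lines (log2 1.38 and 1.30), while CDKN2D, CDKN1C and CDKN2C rose in the parental line (0.76, 0.75 and 0.72) and had values of 0.40, 0.14 and -0.03 in the other. Their interaction terms did not pass (adjusted p = 0.401, 0.164 and 0.121). CDKN2A, which encodes p16 and the alternative product p14ARF, had log2 fold changes of 0.44 (adjusted p = 0.0832) in the parental line, where DESeq2, no filter on low counts and leaving out Act D-treated replicate 3 put it past the threshold, and -0.04 in the other. CDKN1B, which encodes p27, had values of 0.10 and 0.20 and passed in neither line. The CDKN1C call in the parental line was lost without replicate 2 of either treatment, and that of CDKN2C without vehicle-treated replicate 1 or 3 or Act D-treated replicate 1 or 2.

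Among 7 G1 cyclins and kinases tested, CDK6 and CCND1, encoding the kinase and cyclin D1 that phosphorylate pocket proteins, fell with Act D in both lines, and 1 gene rose in both (against 11.1% lower and 7.59% higher over all genes in the parental line and 8.4% and 3.51% in the libraries labelled uL3Δ). CDK6 was at 405 ± 43.0 and 216 ± 12.2 CPM in the parental groups and at 404 ± 24.5 and 226 ± 16.3 in those labelled uL3Δ (log2 -0.91 and -0.84). CCND1 changed by -0.60 and -0.62. CCNE1, encoding cyclin E1, rose in both (0.34 and 0.42), although leaving out 1 library ended the call in 5 of 6 cases in the parental line (all but vehicle-treated replicate 1) and in 4 of 6 in the other (replicates 1 and 3 of each treatment). CDK4, CCND3, CDK2 and CCNE2 did not pass with Act D in either line, and CCND2 did not pass the filter on low counts.

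**Figure D4:**
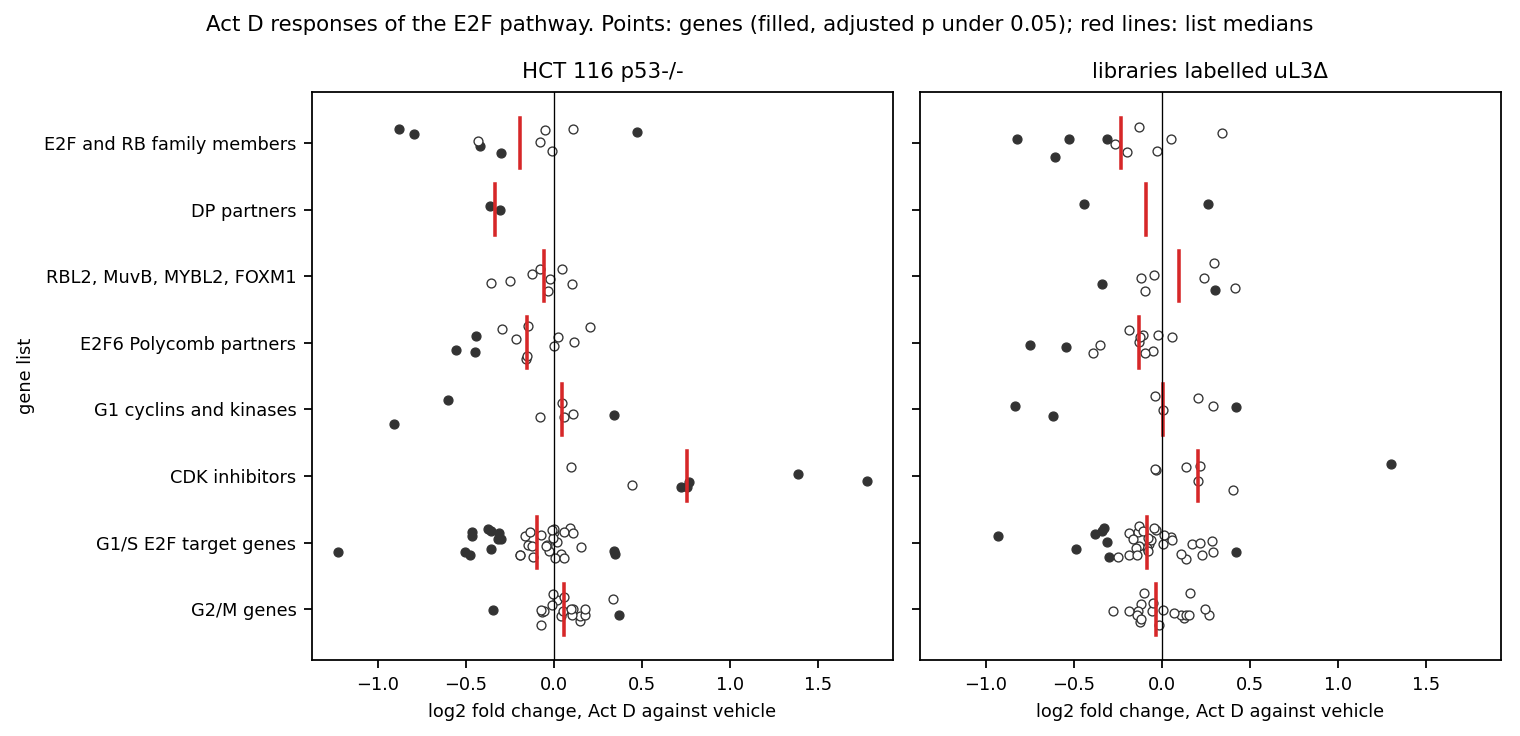
Log2 fold changes with Act D (x axis) of each gene in 8 lists (y axis) in the parental line (left) and in the libraries labelled uL3Δ (right). Each point is a gene, filled where adjusted p was under 0.05, and red lines are list medians. CDK inhibitors have a median of 0.75 on the left and 0.20 on the right, and most G1/S target genes lie near 0 on both sides (medians -0.10 and -0.08).

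Of 36 G1/S genes known as E2F targets, 11 fell and 2 rose with Act D in the parental line, and 7 fell and 1 rose in the libraries labelled uL3Δ, with list medians of -0.10 and -0.08. Over all genes 11.1% were lower and 7.59% higher in the parental line, and 8.4% and 3.51% in the other. CHAF1A, a subunit of chromatin assembly factor 1, changed most, at 61.8 ± 3.88 and 26.5 ± 1.01 CPM in the parental groups (log2 -1.22, adjusted p = 1.15e-07) and at 69.2 ± 6.09 and 36.2 ± 2.02 in those labelled uL3Δ (log2 -0.93). The replication licensing factor CDT1 fell in both (-0.51 and -0.49), a call lost in the parental line without vehicle-treated replicate 3 or Act D-treated replicate 1 or 3, and in the other without vehicle-treated replicate 1 or Act D-treated replicate 2 or 3. PCNA, the replication clamp, rose in the parental line (0.35). Of the 36, only BRCA1 responded differently between the lines by the interaction test (0.53, adjusted p = 0.0259), and this call was lost in 9 of 19 alternatives, among them leaving out any Act D-treated parental library. Of 20 G2/M genes, 1 fell and 1 rose with Act D in the parental line (BUB1B and MKI67, both lost without replicate 1 or 2 of either treatment and MKI67 also without Act D-treated replicate 3) and 0 passed in the libraries labelled uL3Δ by edgeR (4 at an unadjusted p under 0.05, 0 by DESeq2).

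Between the lines with vehicle, 22 of the 36 G1/S genes were lower and 8 were higher in the libraries labelled uL3Δ, against 36.2% and 35.1% of all genes. CHAF1B (log2 -1.74) and POLE (-1.16), the catalytic subunit of DNA polymerase epsilon, were the lowest relative to parental cells. CDC45 (1.27), a subunit of the replicative helicase, and the phosphatase gene CDC25A (1.204) were the highest. With Act D 18 were lower and 9 higher, against 35.3% and 35.1%. Of the 20 G2/M genes, 11 were lower and 7 higher with vehicle, against 36.2% and 35.1% of all genes, with MKI67, a proliferation marker, at -1.60 and CDC25C at 1.26.

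For the 7 members whose group means spanned more than 1 on the log2 scale, the genes with the most similar pattern over the 12 libraries were ranked by Pearson correlation. These correlations are dominated by the split between the lines, and all points share libraries and scaling. E2F2 was most like DGCR2 (r = 0.992), ENOX2 (0.989) and UHRF1 (0.986), of which UHRF1 is on the G1/S list. E2F8 was most like B4GALNT3 (0.997), RBL1 like EGFR (0.991), E2F4 like ZC3H7B (0.986), E2F3 like XPO5 (0.986), E2F5 like LIMS1 (0.985) and E2F7 like FXR2 (0.979).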

How the data were processed

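Paired-end TruSeq reads were adapter- and quality-trimmed by the authors, cleared of contaminant sequence and quantified on Ensembl transcripts with RSEM 1.2.25 and the hg38 build. They deposited expected counts, TPM, effective lengths and, as a score of certainty, the posterior standard deviation of each count, per gene for 11 libraries and per transcript for vehicle-treated parental replicate 2, which was summed per gene. The deposited TPM values were used for orders and shares within libraries. Expected counts were rounded to whole numbers and fitted with edgeR 4.0.16 (R 4.3.3) over all 12 libraries: filterByExpr by group (minimum count 10, total 15), TMM, the quasi-likelihood test with 8 residual degrees of freedom, and Benjamini-Hochberg adjustment over 15692 genes at 0.05. Intervals are 95%. Total counts per library (10087925 to 21138886) set the precision of low genes. RSEM's posterior SD was at most 0.859% of a member's count in the 11 libraries deposited per gene. Symbols matched 60261 of 60617 identifiers.

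Groups came from the sample labels. Members and gene lists were chosen with earlier results of these data known, and lists are described by counts and medians beside all genes. Named from each list were the 2 called genes with the largest change in each direction and all genes of lists of at most 8, except where a gene is given for its known role or a count of 5 or fewer is spelled out. Alternatives were the likelihood-ratio test, DESeq2 1.42.0, other scalings, filters and sample sets, a replicate block, a fold threshold and leaving out each library. Some genes of the lists are not reported here by name.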

Additional observations from a re-analysis of the deposited data

Results flagged for a closer look

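Each of the 5 genes below responded to Act D differently in the 2 lines by the interaction test (edgeR, adjusted p under 0.05), as 6.53% of all genes did. Differences are log2 values of the libraries labelled uL3Δ minus the parental line. E2F7 differed by -0.779, from 0.47 in the parental line and -0.31 in the libraries labelled uL3Δ. E2F6 differed by -0.597, from -0.01 and -0.61. CDKN1A differed by -1.56, from 1.77 and 0.22. TFDP2 differed by 0.626, from -0.36 and 0.26. BRCA1 differed by 0.529, from -0.48 and 0.05, and its call was lost in 9 of 19 alternatives, where adjusted p reached 0.0828. Groups of 3 libraries were not tested for outlying samples.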

How the results depend on the processing

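The counts of members called were 9 and 9 for the line differences with vehicle and Act D, 5 and 4 for Act D in the parental line and in the libraries labelled uL3Δ, and 2 for the interaction. A required log2 fold change of at least 1 left 3, 4, 0, 0 and 0. The interaction count was 4 with DESeq2 and 4 with no filter, both adding E2F2 and E2F4. Leaving out 1 library gave 9 to 9, 7 to 9, 3 to 5, 3 to 4 and 2 to 3 members in that order, with 3 in the parental line without Act D-treated replicate 1. With scaling by library size alone the all-gene median was -0.26 in each line comparison, where E2F1 and E2F6 were lost with vehicle and RB1 and E2F7 with Act D, and E2F7 changed sign (-0.013, adjusted p = 0.913). Same-numbered libraries showed no shared deviation from their group means (correlations -0.0824 to 0.0937). With 3 libraries per group this cannot show whether they were prepared as matched sets. With the replicate block the counts were 9, 9, 4, 4 and 2, the lost call being E2F1. The causes of these changes were not tested. Depth limits E2F2, E2F5, E2F8 and RBL1, which had under 100 counts in at least 1 library.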

Other observations

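The effective length that RSEM gave E2F7, which follows the mix of its transcripts and the fragment lengths, was 4776 and 4663 bases in vehicle-treated parental replicates 1 and 3. It ranged from 4183 to 4598 with Act D, 3698 to 4249 in vehicle-treated libraries labelled uL3Δ and 3509 to 3620 with Act D. In vehicle-treated parental replicate 2, deposited per transcript, a mean of the transcripts' lengths weighted by TPM gave 5285 bases. E2F1 has 1 transcript in that library, so its effective length could not follow a mix. With the same mean for that library, it stayed between 2516 and 2534 bases in all 12 libraries. Other members with several transcripts also varied, RBL1 from 3109 to 5519 bases, E2F5 from 1024 to 1719 and E2F8 from 2596 to 3550. These differences were not tested.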
